A study of Cyanidioschyzon merolae strain 10D with 12 samples.

Results

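Transcript levels were compared between Cyanidioschyzon merolae cultures that had passed through a day at low CO2 and a day of recovery and the same kind of culture before that treatment. The comparison used 6 of the 12 RNA-seq libraries, 3 from HC 0 h and 3 from the HC 24 h recovery point, and tested 4865 of the 4970 genes in the table. All libraries came from wild-type cells of strain 10D. The cells were grown in batch culture at 30 °C under 90 µmol photons per square metre and second, from a starting optical density of 0.7, in air with 5% CO2. The HC 0 h cells (high CO2) were harvested after 24 h of this growth. The recovery cells had then spent 24 h at 0.04% CO2 (low CO2, LC) and a further 24 h back at 5% CO2. The remaining 6 libraries, from 3 h (LC 3 h) and 24 h (LC 24 h) at low CO2, are used below for the levels between the 2 end points and for 1 second comparison. Both end points therefore share genotype, light, temperature and CO2, and they differ in CO2 history, in age of the batch culture and in time of harvest. Cultures held at 5% CO2 for the whole time were not analysed here, so these 3 differences cannot be told apart. The protocols speak of independent biological replicates, and the labels do not say whether a replicate number marks 1 culture followed over time.

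C. merolae is a unicellular red alga of hot acidic springs, with a single plastid and a small genome. Its light harvesting uses phycobilisomes, which feed mainly photosystem II, together with chlorophyll-binding LHC proteins attached to photosystem I. When CO2 is scarce, algae raise transcripts for carbon uptake and for photorespiration, the pathway that recycles the phosphoglycolate made when Rubisco takes oxygen in place of CO2. Cytosolic ribosomes translate the messages of nuclear genes, among them those of the LHC proteins and of most enzymes described here.

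Libraries held 9671516 to 11367647 estimated read counts at HC 0 h and 24296460 to 28346661 after recovery. Across genes, log2 CPM correlated at 0.983 to 0.992 among the HC 0 h libraries, at 0.978 to 0.994 among the recovery libraries and at 0.969 to 0.981 between the groups. These values describe the libraries, since genes are no independent replicates. Recovery replicate 1 lay nearest to the mean of the HC 0 h libraries, 0.337 log2 units away (root mean square over genes), against 0.393 for replicate 2 and 0.369 for replicate 3. The labels give no sequencing batch. Values of a gene are normalised counts (CPM, scaled by the trimmed mean of M-values), given for replicates 1, 2 and 3 in that order. Means carry the SD over 3 libraries (n = 3). Log2 changes are recovery minus HC 0 h ± standard error. The libraries hold RNA of whole cultures, in which fewer cells with a transcript and less of it per cell cannot be told apart.

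Most transcripts stood near their starting level, and the genes that did not were shifted by modest amounts. The genes called higher after recovery included 3 of the antenna of photosystem I, 7 of 25 of chlorophyll and haem synthesis and 7 of 11 of branched-chain amino acid breakdown. The genes called lower included 34 of 81 cytosolic ribosomal proteins, 8 of 23 of translation elongation, 6 of 22 of glycolysis, 5 of 11 of purine synthesis and both Rubisco subunits. Most of these counts were much smaller when single libraries were left out, as given with each list. The median log2 change of the 4865 tested genes was 0.01, and 4488 of them (92.3%) lay within 0.5 of 0. With edgeR's quasi-likelihood test and Benjamini-Hochberg adjustment, 684 genes (14.1%) had an adjusted p under 0.05. Of these, 352 (7.24%) were higher and 332 (6.82%) were lower after recovery, and their median absolute log2 change of 0.41 corresponds to a 1.32-fold difference. At least 2-fold changes were limited to 22 higher (0.452%) and 5 lower genes (0.103%). The 3 recovery values lay outside the 3 starting values in 683 of the 684 called genes, against 1819 (37.4%) of all tested genes.

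The number of called genes depended on single libraries. Without HC 0 h replicate 1, 2 or 3 the test called 304, 368 and 358 genes, and without recovery replicate 1, 2 or 3 it called 913, 189 and 301. Of the 684 genes, 186 (105 higher and 81 lower) were called under each of 15 other settings, of which 6 left out 1 library. Calls that held under those 15 settings are termed stable here. For the rest of the named genes, each left-out library that ended a call is given with the adjusted p without it. Recovery replicate 1 was the lowest of its group for 243 of the 352 higher genes and the highest for 222 of the 332 lower genes, that is, the recovery library nearest to the starting level in most of them. In the authors' deposited table, 94 genes had a q-value under 0.05 with a higher level after recovery and 52 with a lower level.

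**Figure D1:**
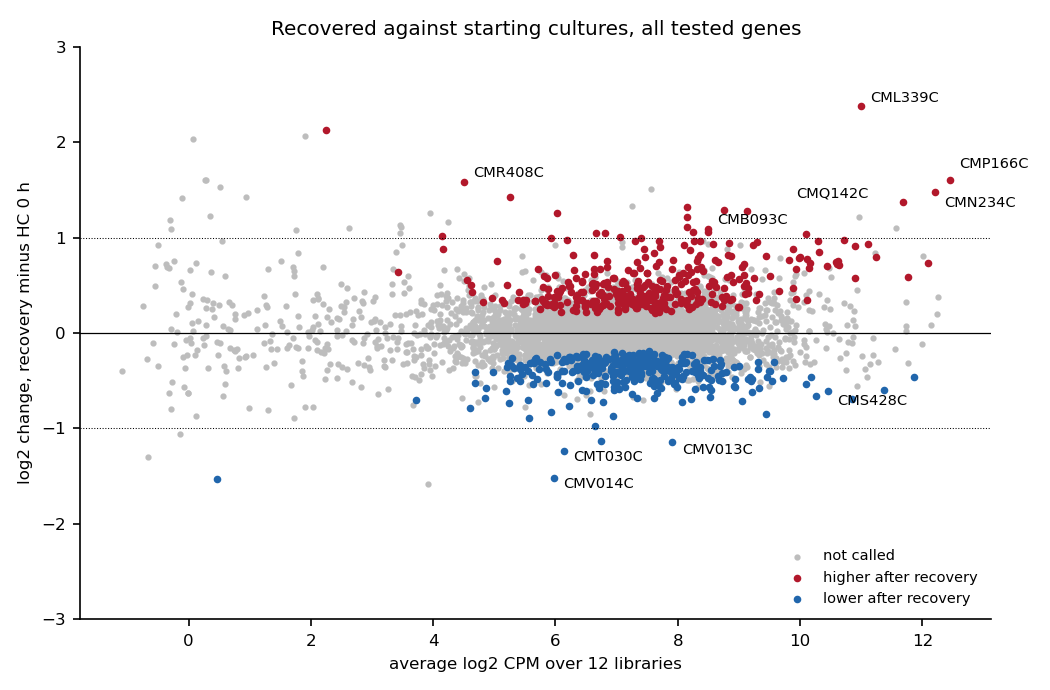
Log2 change of each tested gene, recovery minus HC 0 h (y axis), against its average log2 CPM over 12 libraries (x axis). Red points are the 352 genes called higher, blue points the 332 called lower and grey points the rest, dotted lines mark 2-fold, and 1 gene lies outside the axes. Most called genes lie within the 2-fold lines, and the light-harvesting genes CMN234C and CMQ142C lie among the most abundant that passed 2-fold.

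Transcripts of the photosystem I antenna were among the most abundant of those that rose. CMN234C, matched to the chlorophyll-binding antenna protein LHCA2, stood at 3198, 3438 and 3287 CPM at HC 0 h and 6779.6, 9779.7 and 11175 after recovery. All 3 recovery libraries were above all 3 starting libraries (log2 change 1.48 ± 0.19, edgeR adjusted p = 0.00253), and the call was stable. CMQ142C, matched to LHCA4 of the same family, stood at 1942, 2502 and 2522 CPM at HC 0 h and 3666, 6664 and 7720.0 after recovery. Its groups did not overlap either, with replicate 1 the lowest of each group (log2 change 1.37 ± 0.25, edgeR adjusted p = 0.00794), and the call was stable. The third antenna gene, CMN235C (LHCA3), stood at 1339, 1921 and 1871 CPM at HC 0 h and 2247, 3672 and 3759.6 after recovery (log2 change 0.92 ± 0.20, edgeR adjusted p = 0.0148), again without overlap. Its call was lost on leaving out HC 0 h replicate 1 (0.0565) or recovery replicate 2 (0.0739) or 3 (0.0599). During low CO2 these transcripts had moved in both directions, CMN234C standing at 1811 ± 295 CPM at LC 3 h and 4603 ± 303 CPM at LC 24 h and CMQ142C at 1370.2 ± 194 CPM at LC 3 h and 3474 ± 509 CPM at LC 24 h.

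The light-harvesting list holds 4 tested members, of which these 3 rose (75.0%, against 7.24% of all genes), with a median log2 change of 1.14 over the list against 0.01 over all genes. The fourth, CMV141C, is described as PsbZ, a photosystem II subunit, with a log2 change of 0.30. The list holds no phycobilisome gene, and phycobilisome proteins were not analysed here. Without HC 0 h replicate 1, 2 or 3 the count was 2, 3 and 3, and without recovery replicate 1, 2 or 3 it was 3, 2 and 2. Together the 4 genes took 0.684%, 0.814% and 0.802% of the normalised counts at HC 0 h and 1.30%, 2.03% and 2.26% after recovery. At LC 3 h their share was 0.415%, 0.328% and 0.373%, and at LC 24 h it was 1.01%, 1.07% and 1.04%. The recovery libraries thus held the highest shares of the series. In the authors' deposited table, whose TPM values are corrected for gene length, CMN234C ranked 1 at both end points, with mean values of 6315 and 16557 TPM. There CMQ142C went from rank 9 to rank 2 and CMN235C from rank 25 to rank 10. LHC genes resemble one another, and how RSEM divided shared reads among them was not checked.

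**Figure D2:**
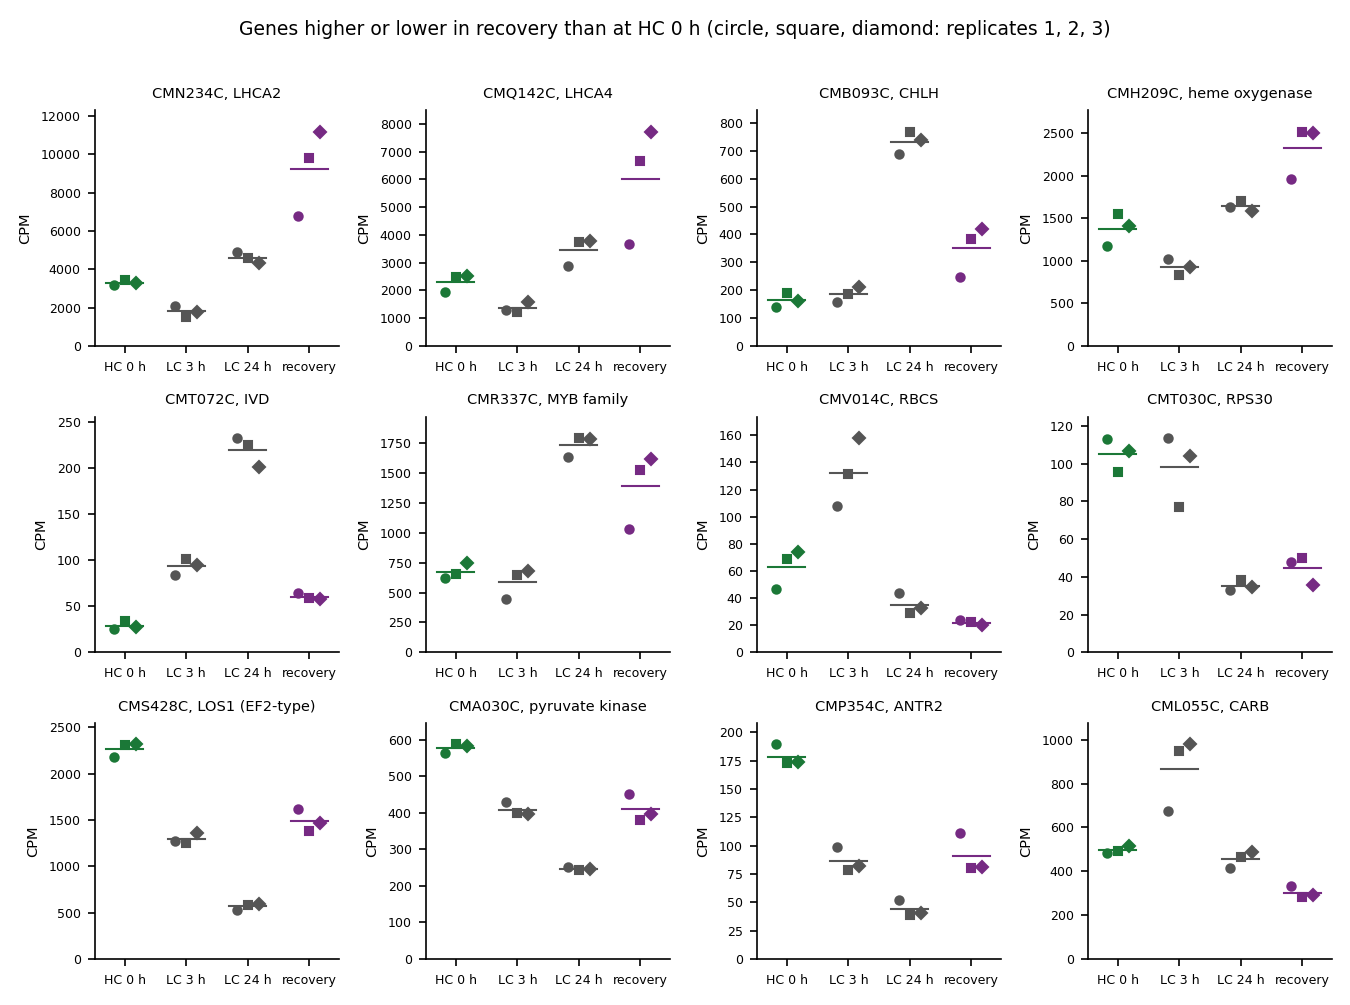
CPM (y axis, linear, from 0) of 12 named genes in the 12 libraries, by group along the x axis, with circles, squares and diamonds for replicates 1, 2 and 3 and a bar at the group mean. In each panel the recovery values (purple) lie wholly above or wholly below the HC 0 h values (green), and for CMN234C and CMQ142C they also lie above most or all values at low CO2.

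The remaining photosystem I genes that rose had smaller log2 changes than CMN234C and CMQ142C. Of 12 tested genes in the photosystem I category, 5 rose (41.7%, against 7.24% of all genes) and none fell, and 3 of the 5 are the antenna genes above. CMP086C (subunit PsaO) stood at 1143, 1551 and 1498 CPM at HC 0 h and 1515, 2579.6 and 2943 after recovery (log2 change 0.75 ± 0.22, edgeR adjusted p = 0.043). The plastid gene CMV055C (PsaK) stood at 7.95, 12.1 and 12.9 CPM at HC 0 h and 19.2, 24.0 and 17.6 after recovery (log2 change 0.88 ± 0.25, edgeR adjusted p = 0.0367). For both genes HC 0 h replicate 1 was the lowest of the 6 libraries. The groups of CMP086C overlapped, its lowest recovery value lying below its highest starting value. The call of CMP086C was lost on leaving out HC 0 h replicate 1 (0.147), 2 (0.0766) or 3 (0.0854) or recovery replicate 2 (0.155) or 3 (0.156), and when only the 6 libraries were fitted (0.0916). That of CMV055C was lost on leaving out HC 0 h replicate 1 (0.126), 2 (0.0764) or 3 (0.0602) or recovery replicate 2 (0.15) or 3 (0.0661). The median over the category was 0.31, and the count of risers was 2, 3 and 3 without HC 0 h replicate 1, 2 or 3 and 5, 2 and 2 without recovery replicate 1, 2 or 3. The photosystem II category, also with 12 tested genes, had a similar median of 0.34. There 11 genes had a positive log2 change, 1 was called higher (8.33%) and none lower. Its count of risers was 0, 0 and 0 without HC 0 h replicate 1, 2 or 3 and 2, 0 and 0 without recovery replicate 1, 2 or 3. CMI290C, matched to the oxygen-evolving subunit PsbO of photosystem II, stood at 3399, 4366 and 4288 CPM at HC 0 h and 4701, 7437 and 7939.8 after recovery (log2 change 0.74 ± 0.20, edgeR adjusted p = 0.0328), a call that was lost on leaving out HC 0 h replicate 1 (0.119), 2 (0.0691) or 3 (0.0736) or recovery replicate 2 (0.135) or 3 (0.117), and with 6 libraries fitted alone (0.0734). CMI244C, matched to IMMUTANS, a plastid terminal oxidase that takes electrons from the plastoquinone pool, stood at 300.3, 325 and 299 CPM at HC 0 h and 583, 532 and 505 after recovery. The recovery values lay far above the starting ones (log2 change 0.81 ± 0.10, edgeR adjusted p = 0.00207), with a stable call.

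The abundant transcript CMP166C, for which the table gives no function, also rose. It stood at 3116, 3473 and 3614 CPM at HC 0 h and 6463, 12229.7 and 12446 after recovery, without overlap and with a stable call (log2 change 1.61 ± 0.24, edgeR adjusted p = 0.00337). Its rank in the authors' deposited mean TPM went from 22 to 3, and it stood at 1821 ± 289 CPM at LC 3 h and 6755 ± 249 CPM at LC 24 h.

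Chlorophyll and haem synthesis showed a partial rise. This pathway makes the tetrapyrroles, from which chlorophyll, haem and, through haem oxygenase, the phycobilin pigments of the phycobilisome derive. Of 25 tested genes in the word list of tetrapyrrole synthesis, 7 rose (28%, against 7.24% of all genes) and 1 fell, with a median log2 change of 0.24. CMB093C, matched to CHLH, the large subunit of the magnesium chelatase that commits protoporphyrin to chlorophyll, stood at 138, 192 and 163 CPM at HC 0 h and 248, 382 and 421 after recovery. The groups did not overlap (log2 change 1.09 ± 0.19, edgeR adjusted p = 0.00671), and the call was stable. CMB093C stood at 186 ± 27.4 CPM at LC 3 h and 732 ± 39.8 CPM at LC 24 h, so the recovery values lay between the starting and the late low-CO2 values. CMH209C, matched to haem oxygenase, stood at 1179, 1549.5 and 1415 CPM at HC 0 h and 1961, 2521 and 2502 after recovery, with every recovery value above every starting value (log2 change 0.75 ± 0.14, edgeR adjusted p = 0.00822) and a stable call. CMN338C, matched to the protochlorophyllide reductase PORA, stood at 324, 494 and 459 CPM at HC 0 h and 516, 776 and 818 after recovery (log2 change 0.72 ± 0.20, edgeR adjusted p = 0.0354), and its call was lost on leaving out HC 0 h replicate 1 (0.121), 2 (0.0534) or 3 (0.0722) or recovery replicate 2 (0.138) or 3 (0.126), and in a fit of the 6 libraries (0.0658). The member that fell was CMM270C, matched to the chelatase subunit CHLD, with 236, 237 and 230.2 CPM at HC 0 h and 169.8, 194 and 191 after recovery (log2 change -0.34 ± 0.09, edgeR adjusted p = 0.035). Leaving out any 1 of the 6 libraries raised the adjusted p past 0.05 (0.0626 to 0.0971). The count of risers was 2, 2 and 3 without HC 0 h replicate 1, 2 or 3 and 9, 2 and 3 without recovery replicate 1, 2 or 3. In the category of tetrapyrrole synthesis, with 30 tested genes, 7 rose (23.3%) and 3 fell (10.0%, against 6.82% of all genes). The median of the category was 0.22. With the same libraries left out in the same order, its falls numbered 0, 0, 1, 2, 0 and 1.

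Genes for the breakdown of branched-chain amino acids, which in mitochondria and peroxisomes ends in acetyl-CoA and electrons for respiration, rose in the majority. Of 11 tested genes 7 rose (63.6%, against 7.24% of all genes) and none fell, with a median log2 change of 0.34. CMT072C, matched to isovaleryl-CoA dehydrogenase of the leucine pathway, stood at 25.9, 34.0 and 27.8 CPM at HC 0 h and 64.6, 59.0 and 58.0 after recovery. Every recovery value lay above every starting value (log2 change 1.05 ± 0.11, edgeR adjusted p = 0.00119), and the call was stable. A second match to the same enzyme, CML080C, stood at 104, 103 and 97.8 CPM at HC 0 h and 141, 155 and 149.8 after recovery, with tight groups that did not overlap (log2 change 0.55 ± 0.06, edgeR adjusted p = 0.00126) and a stable call. CMT073C, the gene next to CMT072C and matched to the methylcrotonoyl-CoA carboxylase subunit MCCA, stood at 41.0, 51.7 and 52.2 CPM at HC 0 h and 66.4, 88.7 and 89.3 after recovery (log2 change 0.75 ± 0.15, edgeR adjusted p = 0.00973), and its call was lost on leaving out recovery replicate 2 (0.0519). The next genes, CMT089C and CML093C, are not among these 11 genes. CML093C belongs to the category of protein targeting, in which 6 of 91 tested genes rose and 6 fell. CMT089C, matched to the oxidoreductase ETFQO that passes electrons from such dehydrogenases to ubiquinone, stood at 69.5, 94.0 and 100.1 CPM at HC 0 h and 135, 178 and 173 after recovery. All recovery values were the higher ones (log2 change 0.88 ± 0.16, edgeR adjusted p = 0.0072), and the call was stable. CML093C, matched to PEX5, the import receptor of the peroxisome matrix, stood at 327, 339 and 334 CPM at HC 0 h and 422, 484 and 483 after recovery (log2 change 0.47 ± 0.08, edgeR adjusted p = 0.00709), also without overlap and with a stable call. At low CO2, CMT072C had stood at 93.9 ± 8.72 CPM at LC 3 h and 219.6 ± 16.2 CPM at LC 24 h and CMT089C at 122 ± 21.0 CPM at LC 3 h and 322 ± 9.83 CPM at LC 24 h. Without HC 0 h replicate 1, 2 or 3 the count of risers among the 11 genes was 4, 5 and 4, and without recovery replicate 1, 2 or 3 it was 6, 3 and 4.

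**Figure D3:**
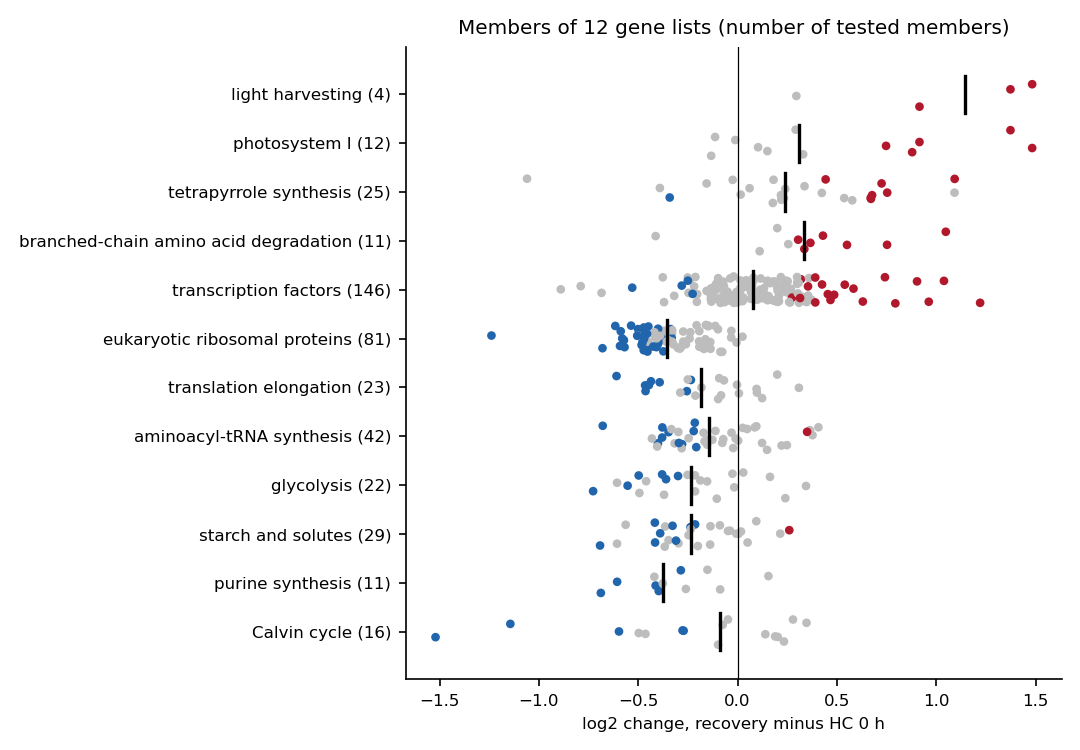
Log2 change of recovery minus HC 0 h (x axis) of each tested member of 12 gene lists (y axis, number of tested members in brackets), with red for called higher, blue for called lower, grey for not called and a bar at the list median. CMN234C (1.48) and CMQ142C (1.37) of the light-harvesting list lie far to the right, and of 81 ribosomal protein genes 80 lie left of 0.

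Among 146 genes caught by the word list of transcription factors, 19 rose (13.0%, against 7.24% of all genes) and 4 fell (2.74%, against 6.82%). The median log2 change was 0.08. CMR337C, a MYB family factor, stood at 623, 655 and 746 CPM at HC 0 h and 1027, 1521 and 1609.8 after recovery. Its recovery values were above the starting ones (log2 change 1.04 ± 0.19, edgeR adjusted p = 0.00786) and the call was stable. CMH127C, a B-box zinc finger protein, stood at 115, 102 and 89.8 CPM at HC 0 h and 229, 188 and 179.5 after recovery (log2 change 0.96 ± 0.15, edgeR adjusted p = 0.00453). CMR409C, described as related to CONSTANS, a plant regulator of day-length responses, stood at 125, 118 and 128 CPM at HC 0 h and 205, 244 and 245 after recovery (log2 change 0.90 ± 0.11, edgeR adjusted p = 0.00198). Neither gene's groups overlapped, and both calls were stable. CMR408C, the undescribed gene next to CMR409C, stood at the low levels of 7.36, 9.08 and 10.4 CPM at HC 0 h and 16.9, 33.5 and 30.2 after recovery (log2 change 1.58 ± 0.23, edgeR adjusted p = 0.00337), a stable call. The GATA-type factor CMD180C had 69.7, 88.0 and 90.7 CPM at HC 0 h and 118, 227 and 234 after recovery (log2 change 1.22 ± 0.28, edgeR adjusted p = 0.0195), and its call was lost on leaving out HC 0 h replicate 1 (0.0725) or 2 (0.0526) or recovery replicate 2 (0.0857) or 3 (0.0712). All 5 had a higher mean at LC 24 h than at HC 0 h, CMH127C standing at 63.2 ± 13.5 CPM at LC 3 h and 463 ± 21.3 CPM at LC 24 h and CMD180C at 373 ± 121 CPM at LC 3 h and 492 ± 32.5 CPM at LC 24 h. CMR165C, matched to a plastid sigma factor, a protein that directs the bacterial-type plastid RNA polymerase, fell, with 768, 712 and 645 CPM at HC 0 h and 554, 459 and 458 after recovery (log2 change -0.53 ± 0.14, edgeR adjusted p = 0.0301), and its call was lost on leaving out HC 0 h replicate 1 (0.106), 2 (0.0793) or 3 (0.0527) or recovery replicate 2 (0.114) or 3 (0.0898). The count of risers was 13, 12 and 16 without HC 0 h replicate 1, 2 or 3 and 21, 8 and 15 without recovery replicate 1, 2 or 3.

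Of 16 genes in the word list of light signalling and DNA photorepair, 3 rose (18.8%, against 7.24% of all genes) and none fell, with a median of 0.15. CMT328C, matched to the blue-light receptor phototropin 2, stood at 331, 349 and 364 CPM at HC 0 h and 483, 519 and 516 after recovery (log2 change 0.54 ± 0.07, edgeR adjusted p = 0.00278). CMR124C, matched to the MYB-related factor EPR1, which responds early to phytochrome in Arabidopsis, stood at 87.5, 91.7 and 91.0 CPM at HC 0 h and 131, 148 and 139 after recovery (log2 change 0.63 ± 0.08, edgeR adjusted p = 0.00198). Both showed compact groups without overlap, and both calls were stable. CMQ453C, matched to cryptochrome 2, stood at 240.4, 264 and 262 CPM at HC 0 h and 293, 336 and 352 after recovery (log2 change 0.35 ± 0.08, edgeR adjusted p = 0.0195), and its call was lost on leaving out HC 0 h replicate 1 (0.0772) or 3 (0.0502) or recovery replicate 2 (0.0892) or 3 (0.0773). The count of 3 was 2, 3 and 2 without HC 0 h replicate 1, 2 or 3 and 4, 2 and 2 without recovery replicate 1, 2 or 3. The light signalling category, with 13 tested genes, showed no common direction, with 2 rises, 2 falls and a median of 0.01. With the same libraries left out in the same order, its rises numbered 1, 2, 1, 2, 1 and 1. Its falls numbered 1, 1, 2, 3, 1 and 2.

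Genes of the cytosolic ribosome fell in large number. Of 81 tested eukaryotic ribosomal protein genes, 34 fell (42.0%, against 6.82% of all genes) and none rose, and 80 of the 81 had a negative log2 change. The median over the category was -0.36. Together these genes took 3.69%, 3.58% and 3.68% of the normalised counts at HC 0 h and 2.95%, 2.73% and 2.65% after recovery. Their share was lower again at low CO2, with 2.69%, 2.00% and 2.08% at LC 3 h and 1.31%, 1.53% and 1.53% at LC 24 h. The number called was 13, 26 and 14 without HC 0 h replicate 1, 2 or 3 and 37, 8 and 16 without recovery replicate 1, 2 or 3. By contrast, 70 tested ribosomal protein genes of the prokaryotic type, which serve plastid and mitochondrial ribosomes, had a median of -0.02. Of them 3 were called higher (4.29%) and 1 lower (1.43%), against 7.24% and 6.82% of all genes. The 3 became 2, 1 and 1 without HC 0 h replicate 1, 2 or 3 and 3, 0 and 0 without recovery replicate 1, 2 or 3, and the 1 became 1, 0 and 0 without HC 0 h replicate 1, 2 or 3 and 1, 0 and 0 without recovery replicate 1, 2 or 3. The difference between these categories was not tested. The word list of the cytosolic ribosome, with 108 tested genes, had 31 falls (28.7%) and 3 rises, and its median was -0.27. With the same libraries left out in the same order, falls in that list numbered 11, 24, 13, 33, 7 and 14.

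CMT030C, matched to the small-subunit protein S30, showed the largest fall of the ribosomal genes that are named. It stood at 113, 95.7 and 107 CPM at HC 0 h and 47.8, 50.3 and 35.7 after recovery, without overlap and with a stable call (log2 change -1.24 ± 0.16, edgeR adjusted p = 0.00236). CMC044C, matched to the large-subunit protein L36a, stood at 279, 276 and 286 CPM at HC 0 h and 199, 167 and 159.8 after recovery (log2 change -0.68 ± 0.13, edgeR adjusted p = 0.00822), also a stable call. CMS189C, matched to S3a, stood at 1006, 905 and 948 CPM at HC 0 h and 692, 593 and 581 after recovery (log2 change -0.62 ± 0.13, edgeR adjusted p = 0.0147), and its call was lost on leaving out HC 0 h replicate 1 (0.0554) or recovery replicate 2 (0.0671) or 3 (0.0549).

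Of 23 tested genes of translation elongation, 8 fell (34.8%, against 6.82% of all genes) and none rose, with a median of -0.18. CMS428C, matched to LOS1, an elongation factor of the EF2 type that moves the ribosome along the message, stood at 2185, 2308 and 2316 CPM at HC 0 h and 1615, 1386 and 1463 after recovery. The groups were well apart (log2 change -0.61 ± 0.10, edgeR adjusted p = 0.00541), and the call was stable. CMH226C, matched to elongation factor 1-alpha, which brings aminoacyl-tRNA to the ribosome, stood at 5368, 5929 and 5818 CPM at HC 0 h and 4176, 4039.5 and 4201 after recovery (log2 change -0.46 ± 0.13, edgeR adjusted p = 0.0427). Its call was lost on leaving out HC 0 h replicate 1 (0.0776), 2 (0.117) or 3 (0.111) or recovery replicate 2 (0.134) or 3 (0.0882), and in a fit of the 6 libraries (0.0503). In the authors' deposited mean TPM it went from rank 2 to rank 26, with 5393 and 3683 TPM. The elongation count was 1, 1 and 3 without HC 0 h replicate 1, 2 or 3 and 7, 1 and 1 without recovery replicate 1, 2 or 3.

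The aminoacyl-tRNA synthetases charge tRNAs with amino acids. Among 42 tested genes they gave 10 falls (23.8%, against 6.82% of all genes) and 1 rise (2.38%, against 7.24%). Their median was -0.14. A stable call was that of CMC083C, matched to the glutamyl enzyme, at 187, 169.8 and 176 CPM at HC 0 h and 135, 131 and 138 after recovery (log2 change -0.40 ± 0.07, edgeR adjusted p = 0.0072). The other was CMT280C, matched to the isoleucyl enzyme, at 355, 341 and 352 CPM at HC 0 h and 284, 262 and 259.7 after recovery (log2 change -0.38 ± 0.06, edgeR adjusted p = 0.00512). In both the 3 recovery values were close to one another and below the starting values. The member that rose was CMT275C, matched to a synthetase of the valine class, at 809, 865 and 882 CPM at HC 0 h and 1113, 1083 and 1061 after recovery (log2 change 0.35 ± 0.09, edgeR adjusted p = 0.0252), whose call was lost on leaving out HC 0 h replicate 1 (0.095), 2 (0.0671) or 3 (0.0616) or recovery replicate 2 (0.0952) or 3 (0.0626). Falls numbered 4, 6 and 3 without HC 0 h replicate 1, 2 or 3 and 13, 2 and 3 without recovery replicate 1, 2 or 3.

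Central carbon metabolism was also lower in part. Of 22 tested glycolysis genes 6 fell (27.3%, against 6.82% of all genes) and none rose, with a median of -0.23. Both named matches to pyruvate kinase, which makes pyruvate and ATP in the last step of glycolysis, fell. CMA030C, of the plastid type, stood at 563, 587 and 582 CPM at HC 0 h and 450.3, 379.7 and 396 after recovery (log2 change -0.50 ± 0.08, edgeR adjusted p = 0.00433). CMP260C, of the cytosolic branch, stood at 279, 269 and 242 CPM at HC 0 h and 214, 163 and 162 after recovery (log2 change -0.55 ± 0.10, edgeR adjusted p = 0.00765). Neither overlapped, and both calls were stable. CMK188C, matched to phosphoglycerate mutase, stood at 473, 509.7 and 523 CPM at HC 0 h and 364, 275 and 270.1 after recovery (log2 change -0.73 ± 0.22, edgeR adjusted p = 0.0493), the largest fall of the category, but its call was lost on leaving out HC 0 h replicate 1 (0.0963), 2 (0.109) or 3 (0.113) or recovery replicate 2 (0.178) or 3 (0.155), and it also ended at equal depth (0.0515). Falls numbered 3, 3 and 3 without HC 0 h replicate 1, 2 or 3 and 6, 3 and 4 without recovery replicate 1, 2 or 3. The word list of glycolysis and gluconeogenesis, with 24 tested genes, had 4 falls (16.7%) and 1 rise, and its median was -0.18. With the same libraries left out in the same order, falls in that list numbered 2, 2, 2, 6, 2 and 2.

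The word list of starch, glycogen and solutes had 29 tested genes and a median of -0.24. Of these genes, 8 fell (27.6%, against 6.82% of all genes) and 1 rose (3.45%, against 7.24%). Red algae store floridean starch in the cytosol, and 5 of the 8 members that fell are placed in starch degradation. CMT547C, matched to phosphoglucan, water dikinase, which phosphorylates starch ahead of its breakdown, stood at 478, 481 and 441 CPM at HC 0 h and 339, 253 and 274 after recovery, without overlap (log2 change -0.69 ± 0.14, edgeR adjusted p = 0.0109). Its call was lost on leaving out recovery replicate 2 (0.0642) or 3 (0.0509). CMJ087C, matched to a beta-amylase, stood at 539, 606 and 596 CPM at HC 0 h and 478, 409.6 and 418 after recovery (log2 change -0.42 ± 0.12, edgeR adjusted p = 0.0365). CMT465C, matched to the glucan phosphatase SEX4, stood at 356, 368 and 358 CPM at HC 0 h and 309, 257 and 245 after recovery (log2 change -0.42 ± 0.12, edgeR adjusted p = 0.0492). The call of CMJ087C was lost on leaving out HC 0 h replicate 1 (0.0634), 2 (0.106) or 3 (0.0998) or recovery replicate 2 (0.158) or 3 (0.122). That of CMT465C was lost on leaving out HC 0 h replicate 1 (0.109), 2 (0.117) or 3 (0.103) or recovery replicate 2 (0.178) or 3 (0.164) and at equal depth (0.0536). The riser, CMN106C, is matched to the RNA helicase UPF1 and was caught by the word amylase in its description. It stood at 153, 147 and 158 CPM at HC 0 h and 182, 183 and 183 after recovery (log2 change 0.26 ± 0.07, edgeR adjusted p = 0.0245), and the call was lost on leaving out HC 0 h replicate 1 (0.0706), 2 (0.0813) or 3 (0.0528) or recovery replicate 2 (0.118) or 3 (0.0937). Falls numbered 2, 3 and 2 without HC 0 h replicate 1, 2 or 3 and 8, 1 and 1 without recovery replicate 1, 2 or 3.

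Part of nucleotide synthesis was lower as well. Of 11 tested genes of purine synthesis 5 fell (45.5%, against 6.82% of all genes) and none rose, with a median of -0.38. CMJ084C, matched to the glycinamide ribonucleotide synthetase PUR2, stood at 176, 189 and 179 CPM at HC 0 h and 136, 131 and 141 after recovery, with narrow groups that did not overlap and a stable call (log2 change -0.41 ± 0.07, edgeR adjusted p = 0.00713). CME023C, matched to the later enzyme PUR7, had been at 4954 ± 757 CPM at LC 3 h and 1777 ± 334 CPM at LC 24 h, and its end points were 432, 405 and 423 CPM at HC 0 h and 328, 225 and 229 after recovery (log2 change -0.69 ± 0.19, edgeR adjusted p = 0.0353). Its recovery values lay below the starting values, but the call was lost on leaving out HC 0 h replicate 1 (0.1), 2 (0.0783) or 3 (0.0886) or recovery replicate 2 (0.137) or 3 (0.109). CML055C, matched to the large subunit of carbamoyl phosphate synthetase, which feeds pyrimidine and arginine synthesis, stood at 481, 493 and 514 CPM at HC 0 h and 334, 282 and 290.0 after recovery. The recovery libraries were the lowest of the 12 for this gene (log2 change -0.72 ± 0.14, edgeR adjusted p = 0.00847), and the call was stable. For the purine genes, falls numbered 1, 2 and 3 without HC 0 h replicate 1, 2 or 3 and 5, 1 and 2 without recovery replicate 1, 2 or 3.

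Both subunits of Rubisco, the enzyme that fixes CO2, fell below their starting level. In red algae both are encoded in the plastid genome, next to each other in the table's numbering. CMV014C, the small subunit, stood at 46.8, 68.8 and 74.0 CPM at HC 0 h and 23.7, 22.6 and 19.9 after recovery, and at 132 ± 25.2 CPM at LC 3 h and 35.0 ± 7.70 CPM at LC 24 h. Its recovery values were the lowest of all groups (log2 change -1.52 ± 0.21, edgeR adjusted p = 0.00275), and the call was stable. CMV013C, the large subunit, stood at 161, 187 and 284 CPM at HC 0 h and 95.0, 102 and 89.2 after recovery, with each recovery value below the starting values (log2 change -1.14 ± 0.24, edgeR adjusted p = 0.0128). Its call was lost on leaving out recovery replicate 2 (0.0506) or 3 (0.0526). They were the only falls among 149 tested plastid transcripts (1.34%), against 4 rises (2.68%), and the median of the plastid transcripts was 0.10. Over all genes 6.82% fell and 7.24% rose. The rises numbered 3, 0 and 1 without HC 0 h replicate 1, 2 or 3 and 4, 0 and 1 without recovery replicate 1, 2 or 3. Plastid transcripts took 0.511% to 0.650% of the counts at HC 0 h and 0.549% to 0.644% after recovery. The library kit selects RNA with a poly(A) tail, which most plastid transcripts lack, so these levels rest on RNA carried through that step, whose part in the result was not tested.

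Of 16 genes in the Calvin cycle category, 5 fell (31.2%, against 6.82% of all genes) and none rose, with a median of -0.09. Beside Rubisco they included CMB021C, matched to the chaperonin subunit CPN60A, which helps to fold Rubisco, at 4233, 4156 and 3893 CPM at HC 0 h and 3160.5, 2500.2 and 2459.5 after recovery (log2 change -0.60 ± 0.12, edgeR adjusted p = 0.0109), whose call was lost on leaving out recovery replicate 2 (0.0623). CMJ178C, matched to a methyltransferase of the Rubisco large subunit, stood at 134, 133 and 141 CPM at HC 0 h and 108, 113 and 116 after recovery (log2 change -0.28 ± 0.06, edgeR adjusted p = 0.011), a small but stable fall. CMJ305C, matched to phosphoglycerate kinase, had 1566, 1678 and 1696 CPM at HC 0 h and 1407, 1555 and 1655 after recovery (log2 change -0.10 ± 0.11, edgeR adjusted p = 0.599) and did not pass. Falls numbered 4, 5 and 4 without HC 0 h replicate 1, 2 or 3 and 5, 2 and 4 without recovery replicate 1, 2 or 3. The word list of the Calvin-Benson cycle, with 21 tested genes, had 4 falls (19.0%) and no rise, and its median was -0.05. With the same libraries left out in the same order, falls in that list numbered 3, 4, 3, 4, 2 and 3. CMQ270C, matched to the chaperonin HSP60, stood at 2536, 2018 and 1849.9 CPM at HC 0 h and 1458, 1255 and 1339 after recovery (log2 change -0.66 ± 0.16, edgeR adjusted p = 0.0239), and its call was lost on leaving out HC 0 h replicate 1 (0.0905) or 2 (0.0534) or recovery replicate 2 (0.109) or 3 (0.0785).

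Some of the largest single falls belonged to other enzymes and carriers. CMR398C, described as an oxidoreductase family protein, stood at 170.3, 212 and 209 CPM at HC 0 h and 98.3, 87.3 and 84.1 after recovery (log2 change -1.13 ± 0.21, edgeR adjusted p = 0.00822), and at 126 ± 10.7 CPM at LC 3 h and 16.5 ± 6.93 CPM at LC 24 h. CMP354C, matched to the phosphate transporter ANTR2, stood at 189, 173 and 174 CPM at HC 0 h and 111, 79.9 and 81.3 after recovery (log2 change -0.98 ± 0.15, edgeR adjusted p = 0.00394). The recovery values of both genes lay below all starting values, and both calls were stable. CMC043C, matched to glutathione reductase, which keeps the antioxidant glutathione in its reduced form, stood at 471, 498 and 481 CPM at HC 0 h and 334, 287 and 289 after recovery (log2 change -0.67 ± 0.09, edgeR adjusted p = 0.00275), with a stable call. CMT384C, matched to an adenylate kinase, had been at 1689.8 ± 311 CPM at LC 3 h and 961 ± 135 CPM at LC 24 h and stood at 88.6, 83.4 and 82.0 CPM at HC 0 h and 58.5, 44.3 and 38.1 after recovery (log2 change -0.85 ± 0.18, edgeR adjusted p = 0.0136), so that it passed from a high level at low CO2 to one below the start. Its call was lost on leaving out recovery replicate 2 (0.0623).

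The 4 low-CO2 genes given here were back at or near their starting level, which bears on the label of the recovery group. Other genes that had been high at low CO2 stayed above their start, among them CML339C, as given below. CMT416C, matched to an alpha carbonic anhydrase, had been at 2829 ± 450.4 CPM at LC 3 h and 1175 ± 159 CPM at LC 24 h and stood at 35.0, 40.0 and 38.7 CPM at HC 0 h and 31.7, 36.4 and 31.0 after recovery. The end points overlapped in range, with a log2 change of -0.20 ± 0.15 (edgeR adjusted p = 0.392). CMQ436C, glycolate oxidase of photorespiration, had been at 2102 ± 395 CPM at LC 3 h and 958 ± 179 CPM at LC 24 h and stood at 89.5, 122 and 119.7 CPM at HC 0 h and 76.6, 105 and 110.2 after recovery (log2 change -0.18 ± 0.20, edgeR adjusted p = 0.594). CMS429C, matched to the aminotransferase that turns glyoxylate into glycine, had been at 9619 ± 1530.2 CPM at LC 3 h and 3654 ± 493 CPM at LC 24 h and stood at 149.6, 178 and 163 CPM at HC 0 h and 166, 224 and 223 after recovery (log2 change 0.32 ± 0.18, edgeR adjusted p = 0.245). CMR282C, matched to the P-protein of glycine decarboxylase, stood at 589.6, 695 and 659.5 CPM at HC 0 h and 546, 683 and 742 after recovery (log2 change 0.02 ± 0.20, edgeR adjusted p = 0.956). These 4 genes did not pass this test, and a p above the threshold does not show that the levels were equal.

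Of 13 tested photorespiration genes, 2 rose (15.4%, against 7.24% of all genes) and none fell, with a median of 0.02 and a range of -0.39 to 0.80. Both calls were lost when single libraries were left out. CMI050C, matched to catalase, which removes hydrogen peroxide, stood at 327, 399.9 and 383 CPM at HC 0 h and 513, 705 and 712 after recovery (log2 change 0.80 ± 0.19, edgeR adjusted p = 0.0206), having been at 4416 ± 754 CPM at LC 3 h and 4286 ± 695 CPM at LC 24 h. Its call was lost on leaving out HC 0 h replicate 1 (0.079) or 3 (0.0577) or recovery replicate 2 (0.09) or 3 (0.0712). CMK259C, matched to an aminomethyltransferase, stood at 41.2, 44.1 and 43.9 CPM at HC 0 h and 51.5, 56.0 and 55.2 after recovery (log2 change 0.33 ± 0.08, edgeR adjusted p = 0.021), and its call was lost on leaving out HC 0 h replicate 1 (0.0784), 2 (0.0501) or 3 (0.0535) or recovery replicate 2 (0.0939) or 3 (0.0699). Of 7 genes of inorganic carbon uptake, 1 fell (14.3%, against 6.82% of all genes) and none rose. This was CMM052C, matched to a gamma carbonic anhydrase of the mitochondrial complex I, at 249, 238 and 236 CPM at HC 0 h and 194, 187 and 198 after recovery (log2 change -0.32 ± 0.08, edgeR adjusted p = 0.0264), and its call was lost on leaving out HC 0 h replicate 1 (0.0912), 2 (0.0649) or 3 (0.061) or recovery replicate 2 (0.111) or 3 (0.0658). CMI270C, a second match to an alpha carbonic anhydrase, stood at 719.9, 881 and 699 CPM at HC 0 h and 702, 462 and 405 after recovery (log2 change -0.55 ± 0.20, edgeR adjusted p = 0.0943) and overlapped between the groups. Recovery replicate 1 lay near the start there, and without it the adjusted p was 0.0111. DESeq2 gave an adjusted p of 0.0369.

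**Figure D4:**
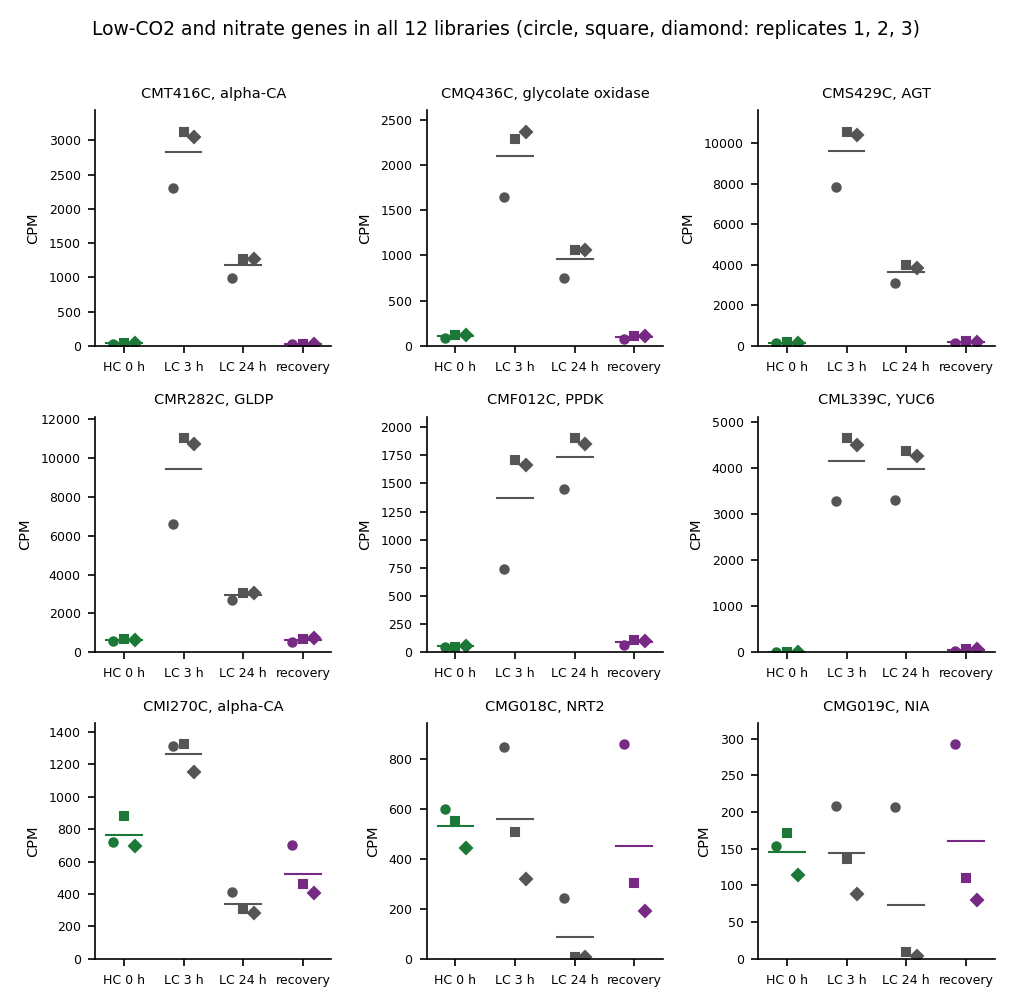
CPM (y axis, linear, from 0) of 9 named genes in the 12 libraries, by group along the x axis, with circles, squares and diamonds for replicates 1, 2 and 3 and a bar at the group mean. For the carbonic anhydrase CMT416C and the photorespiration genes CMQ436C, CMS429C and CMR282C the HC 0 h and recovery points lie together far below the low-CO2 points, and for CMG018C and CMG019C recovery replicate 1 lies above the other recovery points.

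A few genes that had been higher at low CO2 were still above their starting level after recovery. CML339C, matched to a flavin monooxygenase of the YUCCA type, had been at 4154 ± 745 CPM at LC 3 h and 3982 ± 583 CPM at LC 24 h. It stood at 8.54, 13.4 and 12.3 CPM at HC 0 h and 24.5, 72.3 and 81.4 after recovery, so that the recovery values exceeded every starting value while lying far below the low-CO2 values (log2 change 2.38 ± 0.39, edgeR adjusted p = 0.00517), and the call was stable. CMN326C, matched to a dual-specificity protein phosphatase, had been at 582 ± 194 CPM at LC 3 h and 859.6 ± 98.4 CPM at LC 24 h and stood at 74.6, 84.2 and 97.1 CPM at HC 0 h and 155, 237 and 233 after recovery (log2 change 1.29 ± 0.25, edgeR adjusted p = 0.00898). CMS301C, described as wound-responsive, had been at 1767 ± 18.6 CPM at LC 3 h and 1934 ± 98.1 CPM at LC 24 h and stood at 493, 533 and 474 CPM at HC 0 h and 903, 921 and 882 after recovery (log2 change 0.85 ± 0.09, edgeR adjusted p = 0.00119). CME050C, of the NLI-interacting phosphatase family, had been at 361 ± 48.4 CPM at LC 3 h and 591 ± 62.0 CPM at LC 24 h and stood at 97.7, 98.5 and 91.2 CPM at HC 0 h and 187, 186 and 187 after recovery (log2 change 0.96 ± 0.11, edgeR adjusted p = 0.00126). CMN082C, matched to RSH3, an enzyme that makes the stringent-response signal ppGpp in plastids, stood at 82.6, 70.4 and 58.3 CPM at HC 0 h and 124, 116 and 114 after recovery (log2 change 0.75 ± 0.12, edgeR adjusted p = 0.00513). In each of these the recovery values lay above the starting values, and the 4 calls were stable. Levels of CMN082C at low CO2 are not given here, so whether it had been higher there is not shown.

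CMF012C, matched to pyruvate orthophosphate dikinase, which regenerates phosphoenolpyruvate, had been at 1372 ± 545 CPM at LC 3 h and 1732 ± 249 CPM at LC 24 h. It stood at 51.9, 52.9 and 56.7 CPM at HC 0 h and 63.6, 109 and 106 after recovery, without overlap, but did not pass (log2 change 0.79 ± 0.30, edgeR adjusted p = 0.098). Without recovery replicate 1, its lowest recovery library, the adjusted p was 0.0414. It was 0.0431 in a fit of the 6 libraries and 0.037 in DESeq2. Of the 7 genes of C4-type carboxylation, 1 rose (14.3%, against 7.24% of all genes) and 3 fell (42.9%, against 6.82%), with a median of -0.30. The falls included CMP193C, matched to malate dehydrogenase, at 553, 651 and 643 CPM at HC 0 h and 483, 409 and 409 after recovery (log2 change -0.51 ± 0.10, edgeR adjusted p = 0.00973). Another was CMJ051C, matched to malic enzyme, at 221, 211 and 212 CPM at HC 0 h and 180.1, 165 and 175 after recovery (log2 change -0.31 ± 0.06, edgeR adjusted p = 0.00939). Their calls ended without recovery replicate 2 (0.0590 and 0.0529). The third fall, CMM229C, is an isopropylmalate dehydrogenase of leucine synthesis that the word list caught, at 340.4, 361 and 339 CPM at HC 0 h and 289, 273 and 283 after recovery (log2 change -0.30 ± 0.08, edgeR adjusted p = 0.0365), and its call was lost on leaving out HC 0 h replicate 1 (0.0832), 2 (0.109) or 3 (0.0752) or recovery replicate 2 (0.117) or 3 (0.0797). The riser, CMN285C, matched to phosphoenolpyruvate carboxykinase, stood at 291, 289 and 278 CPM at HC 0 h and 345, 364 and 336 after recovery (log2 change 0.28 ± 0.08, edgeR adjusted p = 0.0328), and its call was lost on leaving out HC 0 h replicate 1 (0.0822), 2 (0.0798) or 3 (0.108) or recovery replicate 2 (0.147) or 3 (0.0699). Falls numbered 2, 2 and 2 without HC 0 h replicate 1, 2 or 3 and 3, 0 and 2 without recovery replicate 1, 2 or 3.

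Nitrate genes differed more between replicates than between groups. CMG018C, matched to the nitrate transporter NRT2, stood at 600.2, 552 and 444 CPM at HC 0 h and 859, 305 and 191 after recovery, and its neighbour CMG019C, matched to nitrate reductase, at 153, 172 and 114 CPM at HC 0 h and 292, 111 and 80.8 after recovery. Replicate 1 was the highest recovery library for both, above every starting library, and replicates 2 and 3 were below every starting library. The log2 changes were -0.24 ± 1.06 and 0.14 ± 1.05 (edgeR adjusted p = 0.908 and 0.943). Of 20 tested genes of nitrogen uptake and assimilation, 1 rose and 1 fell (5.0% each way, against 7.24% and 6.82% of all genes), with a median of 0.00. Both were GATA-type factors caught by the word GATA. CMI233C, matched to glutamine synthetase, which fixes ammonium into glutamine, had been at 6076 ± 1075 CPM at LC 3 h and 2143 ± 295 CPM at LC 24 h and stood at 787, 971 and 959 CPM at HC 0 h and 711, 739 and 756 after recovery (log2 change -0.30 ± 0.16, edgeR adjusted p = 0.238), without overlap and without passing.

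Cell division and respiration transcripts showed few calls. Of 91 tested genes of DNA replication and cell division, 2 rose (2.2%, against 7.24% of all genes) and 1 fell (1.1%, against 6.82%). Their median was -0.03. Rises there numbered 1, 1 and 2 without HC 0 h replicate 1, 2 or 3 and 4, 1 and 1 without recovery replicate 1, 2 or 3, and falls 1, 1 and 1 and 2, 1 and 1 in the same order. Among 60 genes of mitochondrial electron transport and ATP synthesis, 3 rose (5.0%) and 2 fell (3.33%), with a median of -0.02. Rises there numbered 1, 1 and 1 without HC 0 h replicate 1, 2 or 3 and 3, 1 and 1 without recovery replicate 1, 2 or 3, and falls 0, 1 and 0 and 3, 0 and 0 in the same order. In either direction, 3.3% of the first list and 8.33% of the second were called, below the 14.1% called over all genes.

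A second pair of groups, LC 24 h and LC 3 h, also sets a later against an earlier sampling at a single CO2 level, 0.04%, and shares no library with recovery against HC 0 h. At low CO2, 2587 genes (53.2%) were called between 24 h and 3 h, 1152 (23.7%) higher and 1435 (29.5%) lower at 24 h, with a median log2 change of -0.05. At least 2-fold changes were found for 416 (8.55%), 88 (1.81%) higher and 328 (6.74%) lower. Of the 2587 genes, 540 were also called in recovery against HC 0 h, 516 in the same direction and 24 in opposite directions. The 271 genes higher in both are 77.0% of the genes that rose in recovery and 23.5% of those that rose at low CO2. The 245 genes lower in both are 73.8% of the genes that fell in recovery and 17.1% of those that fell at low CO2. Across the 4865 genes the log2 changes had a Pearson r of 0.55, given as a description. It ranged from 0.41 without LC 24 h replicate 1 to 0.59 without recovery replicate 1. Both comparisons came from 1 fit and share its dispersion estimates, may involve the same 3 cultures, and have the deeper libraries in the later group. The count of genes called in both in the same direction was 226, 288 and 291 without HC 0 h replicate 1, 2 or 3 and 635, 155 and 246 without recovery replicate 1, 2 or 3.

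The groups of genes described above moved alike in many cases. Over all genes, 23.7% were called higher and 29.5% lower at LC 24 h than at LC 3 h, the shares against which these counts stand. The antenna gene CMN234C had a log2 change of 1.35 ± 0.19 between LC 24 h and LC 3 h (edgeR adjusted p = 0.000255), and CMB093C (CHLH) had 1.98 ± 0.19 (edgeR adjusted p = 2.87e-05). Ribosomal proteins had a median of -0.91 there, with 73 of 81 called lower, and purine synthesis a median of -0.63, with 10 of 11 called lower. Branched-chain amino acid degradation had a median of 0.44, with 7 of 11 called higher. The light-harvesting list had a median of 1.08, with 3 of 4 called higher. The photosystem I category was less alike, with a median of 0.03 there against 0.31 in recovery, though 5 of 12 were called higher. Some other groups did not move alike. The photosystem II category had a median of -0.37 there against 0.34 in recovery. Plastid transcripts had -0.42 against 0.10, and photorespiration genes -1.13 against 0.02. Rubisco small subunit CMV014C changed by -1.91 ± 0.20 (edgeR adjusted p = 4.36e-05). The largest rise of the 3 regulators was that of the B-box protein CMH127C, at 2.87 ± 0.16, against 1.55 ± 0.19 for CMR337C and 2.05 ± 0.11 for CMR409C.

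Other genes changed in recovery without a call between the low-CO2 time points. CML339C had -0.06 ± 0.36 there (edgeR adjusted p = 0.898) and CMS301C 0.13 ± 0.09 (0.242). CMS183C, a transferase family protein, stood at 247, 214 and 202 CPM at HC 0 h and 367, 543 and 521 after recovery, with a stable call in recovery (log2 change 1.11 ± 0.20, edgeR adjusted p = 0.0072), and at 219 ± 59.9 CPM at LC 3 h and 219 ± 31.3 CPM at LC 24 h. Of the 24 genes that went opposite ways, 20 were higher in recovery and lower at LC 24 h than at LC 3 h, and 4 the reverse. CMQ250C, matched to phosphoserine phosphatase of serine synthesis, was 1 of the 4, with 0.28 ± 0.08 at low CO2 (edgeR adjusted p = 0.014) and 86.4, 93.6 and 89.6 CPM at HC 0 h and 72.0, 63.9 and 64.4 after recovery at the end points (log2 change -0.43 ± 0.08, edgeR adjusted p = 0.00797). Whether a gene's change differed between the 2 pairs of groups was not tested.

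**Figure D5:**
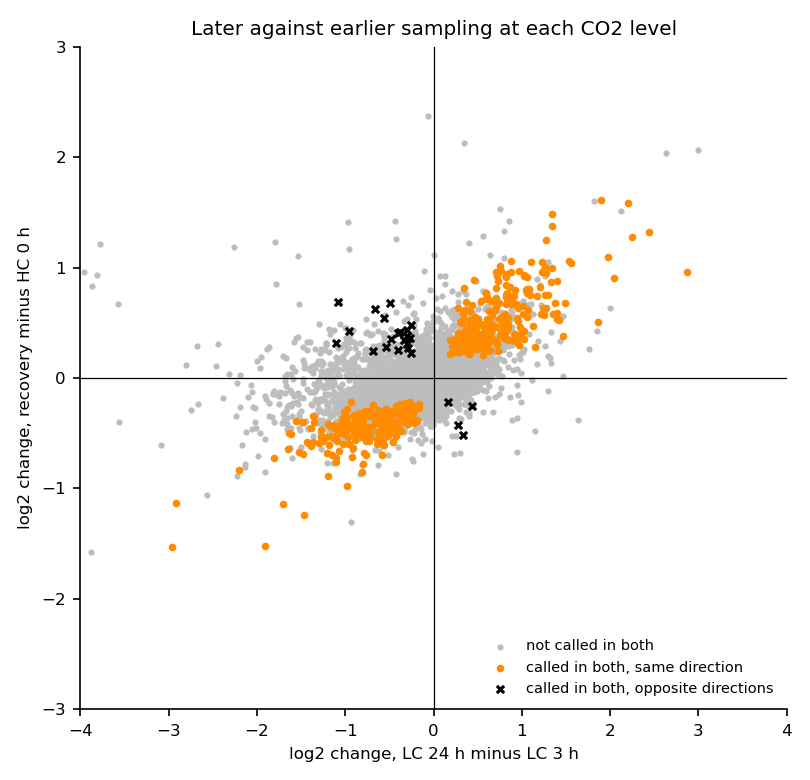
Log2 change of recovery minus HC 0 h (y axis) against log2 change of LC 24 h minus LC 3 h (x axis) for the tested genes, with 8 genes outside the axes. Orange points are the 516 genes called in both comparisons in the same direction, black crosses the 24 called in opposite directions and grey points the rest, and the orange points lie in the lower left and upper right parts of the plot.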

How the data were processed

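The deposited table holds the authors' RSEM estimated counts and TPM values, 1 column per library, for 4970 genes. CASAVA 1.8, Bowtie2, RSEM and edgeR are named, per the submitters' processing notes, with no build or annotation version. The TruSeq RNA kit named in the labels selects poly(A) RNA and does not mark strand, so overlapping or antisense genes cannot be told apart. Of the count cells, 94% were whole, and the rest were rounded. The authors' deposited log2 fold changes were read but not printed, and their q-values and mean TPM values are used only where named. Functions are the table's best Arabidopsis matches; 4738 identifiers matched RefSeq's ASM9120v1 table, used for names and neighbours. No sequence or coordinate is printed.

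All 12 libraries entered 1 edgeR 4.0.16 quasi-likelihood fit (limma 3.58.1, R 4.3.3; 4 groups, TMM, default filter, robust; 105 genes removed), called at a Benjamini-Hochberg adjusted p under 0.05. A standard error is the absolute log2 change over the root of its F statistic. Log2 CPM for correlations, distances and the replicate check carries a prior count of 2. The script was tested on simulated data. Alternatives were other scalings and filters, DESeq2 1.42.0, a replicate block, 6 libraries, genes with a length, thinned counts and left-out libraries. No column went unmatched (0).

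Named are the 15 largest described rises and falls (called, average log2 CPM of at least 4, no overlap), 3 undescribed each way, all carbon uptake, photorespiration, C4-type and nitrogen genes, up to 3 each way per other list or category of at least 10 genes, and CMV013C, CMV014C, CMI270C, CMT416C, CMG019C, CMQ436C and CML339C; the text gives part of these 344. CMV141C was named to complete its list. Members, lists and this rule were chosen with earlier results of these data known.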

Additional observations from a re-analysis of the deposited data

How the results depend on the processing

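The median log2 change stayed within 0.02 of 0 under all settings. Beside the 684 genes of the main test, DESeq2 called 1071 and a replicate block 1251; the other settings that keep all 6 libraries called 662 to 748. With 1 library left out the count ran from 189 to 913, genes of at least 2-fold from 16 to 55 and genes called in both later-against-earlier comparisons in the same direction from 155 to 635 (888 with the block). For gene lists the same ranges were 2 to 5 for photosystem I, 2 to 9 for tetrapyrrole synthesis, 3 to 6 for branched-chain degradation, 8 to 21 for transcription factors, 8 to 37 for ribosomal proteins, 1 to 7 for elongation, 2 to 13 for aminoacyl-tRNA synthesis, 3 to 6 for glycolysis, 1 to 8 for starch and solutes, 1 to 5 for purine synthesis and 2 to 5 for the Calvin cycle. The tetrapyrrole count was 4 when only the 6 libraries were fitted, and with the block transcription factors called higher were 34 and aminoacyl-tRNA genes called lower 17. The cause of these shifts was not tested.

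Replicate numbers were not treated as pairs: deviations of same-numbered HC 0 h and recovery libraries correlated at 0.28, -0.08 and 0.33. HC 0 h replicates 1 and 3 correlated most with their own number, but replicate 2 correlated more with recovery replicate 1 (0.03). Same-numbered LC 3 h and LC 24 h libraries correlated at 0.31, 0.07 and 0.42, each the highest value of that LC 3 h library. LC 24 h replicate 2, however, correlated more with LC 3 h replicate 3 (0.33) than with its own number. Neither the labels nor these values settle whether the numbers mark pairs, so the block is an alternative only. With it, 4 low-CO2 genes that did not pass had an adjusted p of 0.02 (CMS429C, log2 change 0.31), 0.0419 (CMI233C), 0.0219 (CMF012C) and 0.021 (CMI270C). Of 306 called named genes, none changed sign, 93 were called under each setting, 70 were lost under a setting that keeps all 6 libraries, 25 of them in counts thinned to equal depth, and 0 in DESeq2. At equal depth 350 genes were called higher and 312 lower. Triplicates limit the precision of small changes, and counts of a gene below a few CPM rest on few reads.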

Other observations

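Of 84 tested genes of amino acid synthesis, 12 fell (14.3%, against 6.82% of all genes), 1 rose and 71 were not called, with a median log2 change of -0.11 against 0.01 over all genes. Falls numbered 9, 7 and 8 without HC 0 h replicate 1, 2 or 3 and 16, 7 and 8 without recovery replicate 1, 2 or 3. CMA048C, matched to the EPSP synthase of the shikimate pathway to aromatic amino acids, stood at 323, 284 and 300.4 CPM at HC 0 h and 244, 204 and 198 after recovery (log2 change -0.49 ± 0.09, edgeR adjusted p = 0.00822). CMR455C, placed in isoleucine synthesis and matched to a serine racemase, stood at 50.9, 53.5 and 52.1 CPM at HC 0 h and 37.8, 34.9 and 35.4 after recovery (log2 change -0.53 ± 0.07, edgeR adjusted p = 0.00236), and CMH121C, matched to cystathionine gamma-synthase of methionine synthesis, at 185, 201 and 188 CPM at HC 0 h and 159.8, 137 and 154 after recovery (log2 change -0.35 ± 0.07, edgeR adjusted p = 0.00842). None of these groups overlapped, and the 3 calls held under all 15 other settings. The riser was CMA007C, matched to the serine acetyltransferase of cysteine synthesis, at 178, 164 and 165 CPM at HC 0 h and 216, 229.8 and 254 after recovery (log2 change 0.46 ± 0.08, edgeR adjusted p = 0.00712), which also held. In the category of protein targeting, 6 of 91 tested genes rose and 6 fell (6.59% each way, against 7.24% and 6.82% of all genes), with a median of 0.01. Rises numbered 2, 1 and 1 without HC 0 h replicate 1, 2 or 3 and 7, 1 and 4 without recovery replicate 1, 2 or 3, and falls numbered 3, 4 and 2 without HC 0 h replicate 1, 2 or 3 and 8, 2 and 3 without recovery replicate 1, 2 or 3. The largest rise was CMV071C, matched to the translocase subunit SecA, at 32.6, 10.9 and 12.1 CPM at HC 0 h and 57.3, 52.5 and 38.3 after recovery (log2 change 1.42 ± 0.35, edgeR adjusted p = 0.0237), whose call was lost on leaving out HC 0 h replicate 2 (0.071) or 3 (0.0789) or recovery replicate 2 (0.0899), and in a fit of the 6 libraries (0.0562). CML093C, described above, was a riser of this category whose call held under all settings. Falls whose calls also held were CMJ202C, matched to the plastid outer-envelope channel protein OEP80, at 281, 282 and 274 CPM at HC 0 h and 211, 193 and 201 after recovery (log2 change -0.47 ± 0.06, edgeR adjusted p = 0.00229), and CMF062C, matched to the mitochondrial channel TOM40, at 259, 243 and 259 CPM at HC 0 h and 204, 201 and 207 after recovery (log2 change -0.31 ± 0.06, edgeR adjusted p = 0.00822).

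Protein turnover was mixed. Of 16 ubiquitin-conjugating (E2) genes 4 rose (25.0%, against 7.24% of all genes) and none fell, with a median of 0.12. Rises numbered 4, 3 and 3 without HC 0 h replicate 1, 2 or 3 and 6, 2 and 3 without recovery replicate 1, 2 or 3. Of 59 ubiquitin ligase (E3) genes 5 rose (8.47%, near the share of all genes) and 1 fell, with a median of 0.13. Rises there numbered 4, 4 and 3 without HC 0 h replicate 1, 2 or 3 and 9, 3 and 3 without recovery replicate 1, 2 or 3, and the fall was lost in each of these fits. The 37 proteasome genes gave 4 falls (10.8%, against 6.82% of all genes) and no rise, with a median of -0.17. The count of falls was 10 without recovery replicate 1 and 0 without any other single library. CMK253C, an E2 match, stood at 43.5, 37.5 and 42.7 CPM at HC 0 h and 56.7, 63.0 and 69.4 after recovery (log2 change 0.61 ± 0.09, edgeR adjusted p = 0.00337), and CMF144C, matched to the F-box protein SKIP16, at 287, 368 and 336 CPM at HC 0 h and 467, 546 and 589 after recovery (log2 change 0.69 ± 0.12, edgeR adjusted p = 0.00549). CMK163C, matched to a derlin that helps to clear misfolded proteins from the endoplasmic reticulum, stood at 111, 126 and 120.0 CPM at HC 0 h and 185, 190.1 and 177 after recovery (log2 change 0.63 ± 0.07, edgeR adjusted p = 0.00119). All 3 calls held under the 15 other settings. The serine proteases CMN237C, matched to CLPP5, at 507, 535 and 522 CPM at HC 0 h and 346, 332 and 354 after recovery (log2 change -0.60 ± 0.09, edgeR adjusted p = 0.00355), and CMM292C, matched to a DegP protease, at 125, 154 and 151 CPM at HC 0 h and 104, 90.7 and 93.0 after recovery (log2 change -0.58 ± 0.10, edgeR adjusted p = 0.00713), fell with calls that held as well.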
